A study of Homo sapiens with 8 samples.

Results

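Cells that had become resistant to a CDK inhibitor were compared with cells that lack one of its targets. R50 cells are a resistant line obtained as colonies from HCT-116, a human colorectal carcinoma line, and kept from the start in 50 µM NU6102, a purine inhibitor of CDK1 and CDK2. CDK2-/- cells are HCT-116 cells in which the CDK2 gene was deleted; they were bought together with their parental line and received no inhibitor. All 4 arrays of these cells, 2 per line, entered the comparison, of 8 arrays in the series; the other arrays hold untreated WT HCT-116 cells and WT cells given 20 µM NU6102 for 24 h (WT+NU6102). RNA of each culture was hybridised alone, labelled with Cy3, to an Agilent oligonucleotide microarray. The labels call the duplicates biological replicates but do not say how the cultures were separated, so the tests measure the spread between these duplicates. How many clones make up the R50 line, or the knockout line, is not given in the sources used here, and since R50 cells were kept in inhibitor and CDK2-/- cells were not, the line and the presence of inhibitor cannot be told apart from these 4 arrays alone.

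Of the 50599 probes on the array, 27781 were well above background on both arrays of R50 or both arrays of CDK2-/-, and they represent 19095 genes, each described by its brightest tested probe. Levels are log2 signals after subtraction of the 75th percentile of that array, so 0 is that percentile and 1 unit is a doubling. Duplicates correlated with r = 0.995 in R50 and 0.996 in CDK2-/- cells across probes, which are not independent replicates. Both lines were on slide 1, R50 in 1 array column and CDK2-/- in the next, so position on the slide and line cannot be told apart; WT and WT+NU6102 were on slide 2, so any level given for them beside R50 or CDK2-/- also crosses slides. All 8 markers of colon epithelium (EPCAM, CDH1, KRT8, KRT18, KRT19, CLDN4, CLDN7 and ELF3) gave signal well above background on each of the 4 arrays, and 5 of the 8 rose in R50, by at most 0.61. Of 5 fibroblast markers COL1A2, LUM and PDGFRB were above background on none of the 4 arrays and DCN on 1, while COL1A1 was on all 4 and fell by 0.56, from −1.63 in CDK2-/- to −2.19 in R50. The endothelial markers CDH5 and VWF and the leukocyte markers PTPRC, CD14 and CD3E were above background on all 4 at levels between −4.20 and −2.09 and PECAM1 on 1. The part of such markers in the results was not tested.

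CDK2, with cyclin E or cyclin A, drives entry into S phase and is opposed by the inhibitors p27 and p21. When it is deleted, CDK1 can take over much of its work, and E2F-driven genes for cyclins and replication proteins follow the state of the pathway. Interferon-stimulated genes, which recur in the results, are switched on by IRF9 and its partners at a short DNA element.

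R50 and CDK2-/- cells differed in genes of several kinds, and the interferon-stimulated genes, the matrix protein SPARC and the drug efflux pump ABCG2 were among the largest. A gene is called here when its limma p, adjusted by Benjamini-Hochberg, lies under 0.05 and the difference is at least 2-fold. By this rule 557 genes (2.92% of those tested) were higher in R50 and 470 (2.46%) lower. Together they are 5.38% of the tested genes. By probes, 781 were higher (2.81%) and 673 lower (2.42%), 1454 in all (5.23%). Without the minimum fold 3094 genes (16.2%) were higher and 4237 (22.2%) lower, and a single gene is said below to rise or fall when it passed this adjusted p. The median difference over all tested genes was −0.06. After normexp background correction 647 probes were called in place of 1454, with 394 higher and 253 lower.

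**Figure D1:**
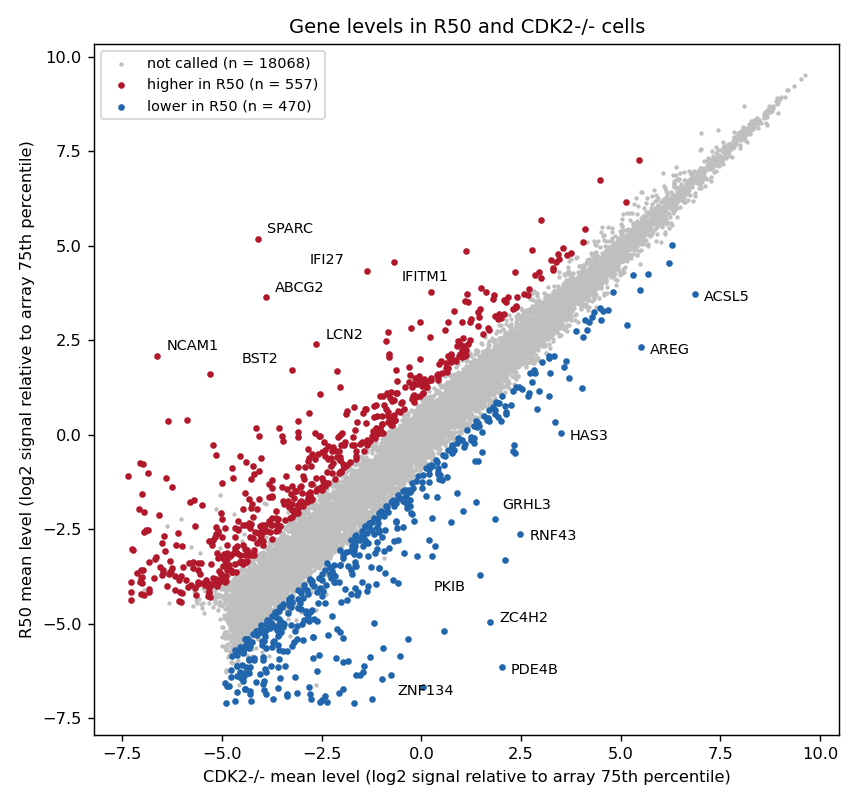
Mean level of each of the 19095 tested genes in CDK2-/- cells (x axis) and R50 cells (y axis), both in log2 units relative to the 75th percentile of the array. Red points are the 557 genes called higher in R50, blue points the 470 called lower and grey points the rest; SPARC, ABCG2 and NCAM1 lie farthest above the diagonal and PDE4B and ZC4H2 among the farthest below it.

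The deleted gene itself was read first. The CDK2 probe (hg19, chr12:56365789-56365848) was above background on all 4 arrays, at −1.56 and −1.51 in CDK2-/- and at −1.10 and −1.09 in R50. The groups did not overlap, and R50 was higher by 0.44 (SE 0.04, limma adjusted p = 0.00121). Where the deleted part of CDK2 lies relative to this probe is not given in the sources used here, so the probe does not check the label.

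Of 29 measured genes of the cyclins, CDKs and their regulators, 9 rose and 9 fell in R50, beside 16.2% and 22.2% of all genes. Past 2-fold were 3 of them, beside 5.38% of all genes. CDK6, a kinase that pairs with D-type cyclins before S phase, was at 2.57 and 2.53 in R50 against 1.04 and 1.06 in CDK2-/-, a rise of 1.5 (SE 0.05, limma adjusted p = 4.16e-05). Cyclin E, the partner of CDK2, went the other way. CCNE1 was at 4.29 and 4.18 in R50 and at 5.32 and 5.28 in CDK2-/- (fall of 1.06, adjusted p = 0.000184), and CCNE2 at 1.08 and 1.0 against 2.66 and 2.67 (fall of 1.63, adjusted p = 4.16e-05). None of these R50 arrays reached the range of the CDK2-/- arrays. CDC6, which loads the replicative helicase, fell by 0.95, the phosphatase CDC25A by 0.74 and the transcription factor E2F2 by 0.64. CDKN1B, which encodes p27, rose by 0.53 and CDK4 fell by 0.42. CDKN2A, which encodes p16 and p14, fell by 0.52 (adjusted p = 0.0223), a call lost without CDK2-/- replicate 1 (adjusted p = 0.0511), without CDK2-/- replicate 2 (0.105) and without R50 replicate 2 (0.0947). Differences for CCND1 (−0.01, adjusted p = 0.953), CDKN1A, which encodes p21 (−0.01, adjusted p = 0.909), CDK1 (−0.06, adjusted p = 0.319, with a second probe at −0.55) and CCNA2 (−0.12, adjusted p = 0.196) did not pass the test. The small changes of CDC25B, CDKN2C, RB1 and WEE1, between 0.24 and 0.27 in size, passed it but were each lost when some single arrays were left out.

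Genes of DNA replication were lower in R50 as a group, each by less than 2-fold. Of 40 measured members 33 fell and 1 rose, against 22.2% and 16.2% of all genes, and their median difference was −0.39. POLE2, a subunit of DNA polymerase epsilon, was at −0.06 on both R50 arrays and at 0.83 and 0.71 in CDK2-/- (fall of 0.83, limma adjusted p = 0.000489). RRM1, a subunit of ribonucleotide reductase, was at 3.77 and 3.76 against 4.61 and 4.54 (fall of 0.81). Smaller falls were found for the helicase subunit MCM3 (0.47) and the sliding clamp PCNA (0.41), while thymidine kinase TK1 rose by 0.18. Of 33 mitotic genes, by contrast, 5 rose, near the 16.2% of all genes, and 2 fell, beside 22.2%. Their median was 0.04 and none was past 2-fold. Genes of RNA export and the nuclear pore resembled the replication genes: 21 of 38 fell and 1 rose, against 22.2% and 16.2% of all genes. Their median was −0.24, and the pore scaffold protein NUP107 fell furthest, by 1.16.

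The interferon-stimulated genes had the highest median of the 24 gene lists plotted. Of 46 measured members 27 were called higher in R50 at 2-fold and none lower, beside 2.92% and 2.46% of all genes; without the minimum fold 41 rose and 1 fell. Their median difference was 1.14. The 4 largest were IFI27, a mitochondrial protein, IFI44, IFITM1, which blocks virus entry, and BST2 (tetherin), which holds budding virus at the membrane.

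IFI27 was at 4.39 and 4.28 in R50 and at −1.28 and −1.42 in CDK2-/- (difference 5.69, SE 0.10, limma adjusted p = 8.75e-06). IFITM1 was at 4.63 and 4.49 against −0.77 and −0.61 (5.25), and BST2 at 1.74 and 1.70 against −2.99 and −3.48 (4.95). The 2 lines were far apart for each of these genes, and the duplicates close. IFI44 was at −1.20 and −1.11 in R50 but not well above background in CDK2-/-, which makes it at least 15.6-fold higher. IFI6 rose by 3.72 and PARP10 by 3.62. The regulators of the pathway moved the same way: IRF9 was at 1.69 and 1.71 in R50 and −0.66 and −0.60 in CDK2-/- (2.33), and IRF7 rose by 2.46. ISG20, an RNA exonuclease, was the member that fell, by 0.61, and MX2 (0.02), RSAD2 (0.07), UBE2L6 (0.14) and HERC6 (0.89) did not pass the test.

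The promoters of IFI27, IFITM1, BST2, IFI44 and IFI6 are printed as examples of the element through which IRF proteins act. The sequences are from RefSeq on GRCh38.p14, in windows of 300 bases that end 50 bases past the annotated start (the window with the lowest start coordinate where a gene has several). They are written 5′ to 3′ along the gene. Capitals mark each match, on either strand, to GAAA followed by any 2 bases and again GAAA; overlapping matches run together.
IFI27, chr14:94110486-94110785 (+ strand): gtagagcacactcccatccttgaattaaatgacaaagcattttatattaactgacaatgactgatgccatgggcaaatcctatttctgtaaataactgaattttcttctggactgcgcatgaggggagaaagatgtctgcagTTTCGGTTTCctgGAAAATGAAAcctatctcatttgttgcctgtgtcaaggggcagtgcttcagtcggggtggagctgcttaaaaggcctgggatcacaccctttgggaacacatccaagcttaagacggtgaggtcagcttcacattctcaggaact
IFITM1, chr11:313790-314089 (+ strand): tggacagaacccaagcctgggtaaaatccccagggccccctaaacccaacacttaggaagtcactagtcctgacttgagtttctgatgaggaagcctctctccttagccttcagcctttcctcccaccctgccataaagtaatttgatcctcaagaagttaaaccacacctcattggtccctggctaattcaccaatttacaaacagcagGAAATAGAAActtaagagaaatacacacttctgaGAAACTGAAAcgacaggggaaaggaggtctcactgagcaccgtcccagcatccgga
BST2, chr19:17405581-17405880 (- strand): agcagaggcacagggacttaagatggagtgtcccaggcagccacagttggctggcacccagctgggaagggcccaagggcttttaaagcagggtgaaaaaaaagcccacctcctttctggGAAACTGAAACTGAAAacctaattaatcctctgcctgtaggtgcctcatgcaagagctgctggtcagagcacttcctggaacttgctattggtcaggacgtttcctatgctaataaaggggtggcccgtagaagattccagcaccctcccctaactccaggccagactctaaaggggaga
IFI44, chr1:78649539-78649838 (+ strand): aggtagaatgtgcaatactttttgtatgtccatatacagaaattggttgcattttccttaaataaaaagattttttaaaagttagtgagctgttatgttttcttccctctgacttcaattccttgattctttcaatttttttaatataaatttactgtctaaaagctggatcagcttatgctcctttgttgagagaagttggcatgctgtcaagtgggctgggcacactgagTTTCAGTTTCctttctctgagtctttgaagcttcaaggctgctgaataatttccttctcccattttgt
IFI6, chr1:27672143-27672442 (- strand): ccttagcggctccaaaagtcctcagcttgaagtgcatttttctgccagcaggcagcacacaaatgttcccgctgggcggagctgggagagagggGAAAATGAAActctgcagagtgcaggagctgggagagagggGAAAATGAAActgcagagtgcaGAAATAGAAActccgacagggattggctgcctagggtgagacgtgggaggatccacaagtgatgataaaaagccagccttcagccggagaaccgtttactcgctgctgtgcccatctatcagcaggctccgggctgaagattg

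Among the 46 interferon genes 36 have such a window, and 25 of these (69.4%) hold the motif, compared with 4.38% of the 27195 genes in the promoter table and 3.90% of the 11857 tested genes found there. Because 10 members lack a window, the share describes those 36 genes and not the whole list. Within the list the motif was found in 16 of 22 genes called higher and in 9 of 14 not called. SAMD9L, above background on neither CDK2-/- array, was at least 7.93-fold higher. OAS1 was 3.67 higher (SE 0.77), with CDK2-/- arrays at −3.1 and −5.7, of which 1 was above background. The windows of both genes lack the motif, and the size for OAS1 is limited by background signal. Outside the list, 5.02% of 299 genes called higher and 3.72% of 296 called lower held it.

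Levels in WT cells place these values. The median level of the 46 genes was 1.56 in WT, 0.80 in R50, −0.53 in WT+NU6102 and −1.10 in CDK2-/-. WT was the highest of the 4 groups for 43 of the 46, R50 lay between CDK2-/- and WT for 42, and CDK2-/- was below both for 45. The 24 h of inhibitor lowered 45 of the 46 in WT cells and raised none, within slide 2 (median −1.84). Of all tested genes 22.3% were lower and 25.8% higher with the inhibitor by the same adjusted p.

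**Figure D2:**
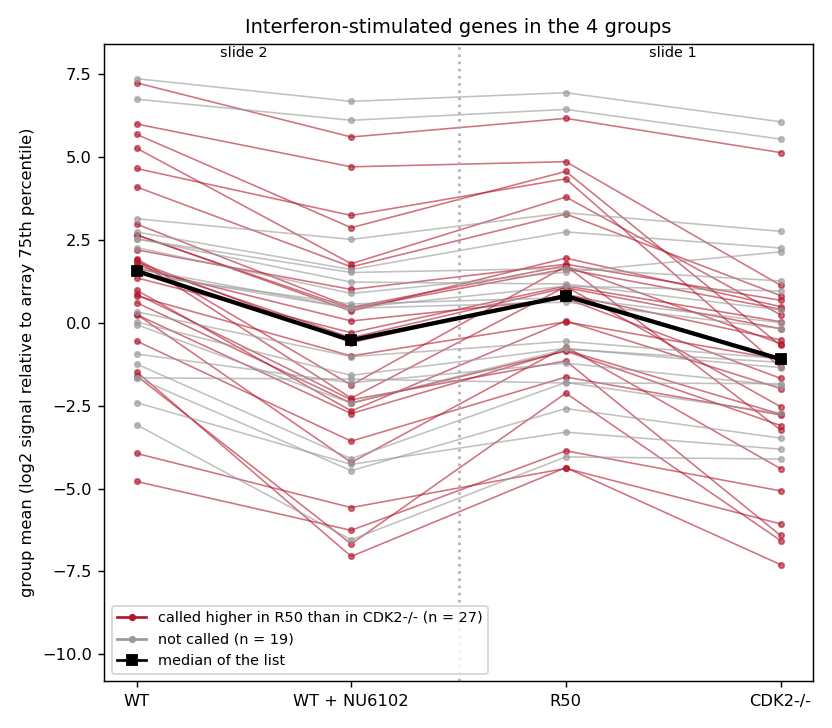
Group mean level (log2 signal relative to the 75th percentile of the array, n = 2 arrays) of each of the 46 interferon-stimulated genes in WT, WT+NU6102, R50 and CDK2-/- cells, with 1 line per gene; red lines are the 27 called higher in R50 than in CDK2-/-, grey lines the other 19, and black squares the median. The median falls from 1.56 in WT to −0.53 in WT+NU6102 on slide 2, and is 0.80 in R50 and −1.10 in CDK2-/- on slide 1.

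Genes of antigen presentation by MHC class I rose with them by smaller amounts. Of 17 measured members 12 rose and none fell, beside 16.2% and 22.2% of all genes, with a median of 0.31. The immunoproteasome subunit PSMB9, at 1.25 and 1.26 in R50 and −0.25 and −0.22 in CDK2-/-, was the member past 2-fold (1.49, limma adjusted p = 5.64e-05), followed by HLA-E (0.69) and the peptide transporter subunits TAP2 (0.67) and TAP1 (0.56). B2M, the light chain of the class I complex, rose by 0.48. Targets of NF-kB and chemokines had 7 members called higher and 1 lower of 21, beside 2.92% and 2.46% of all genes. The cytokines IL18 and LIF rose by 2.19 and 1.87, the chemokine CXCL1 by 1.54 (0.45 on its second probe) and the feedback inhibitor NFKBIA by 1.11. ICAM1, an adhesion molecule for leukocytes, was the exception: it was at −0.33 and −0.32 in CDK2-/- and not well above background in R50, at least 22.1-fold lower.

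**Figure D3:**
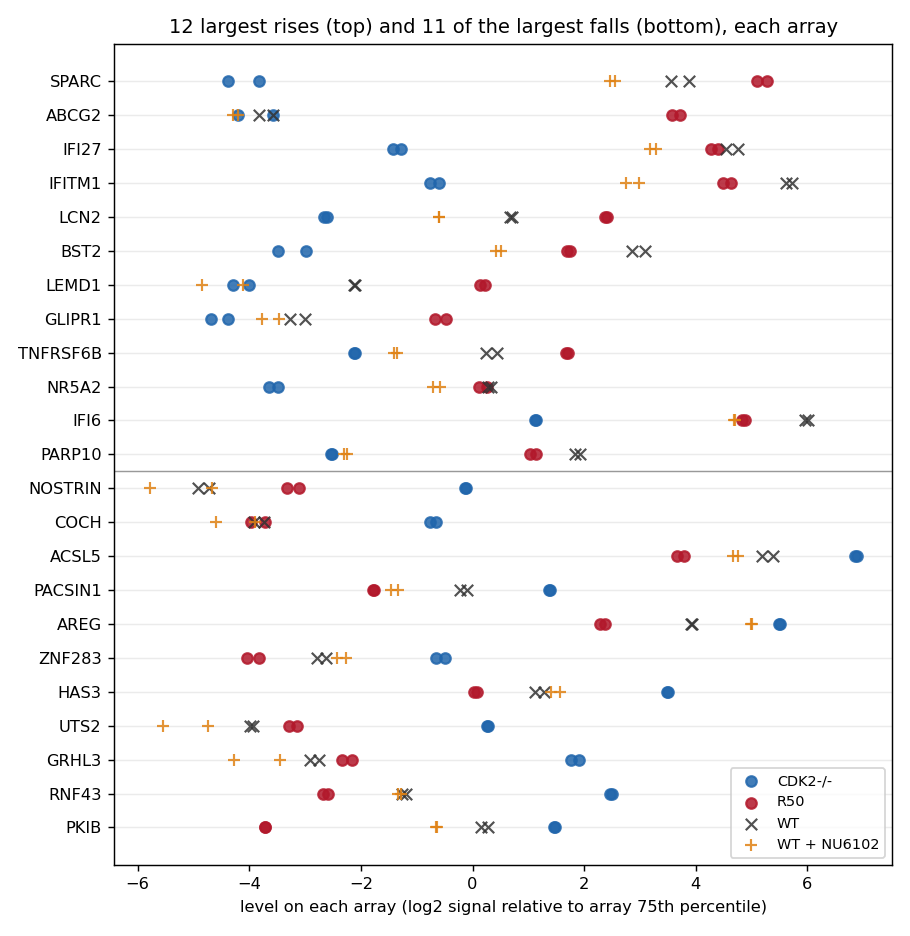
Level on each array (log2 signal relative to the 75th percentile of that array) of the 12 genes with the largest rise and 11 of those with the largest fall in R50 against CDK2-/- among called genes above background on all 4 arrays; filled circles are the 2 arrays of R50 (red) and of CDK2-/- (blue), crosses WT and plus signs WT+NU6102. The red and blue circles do not overlap for any of the 23 genes, which their choice among called genes fixed (the arrays did not overlap for any of the 1454 called probes, nor for 70.3% of all tested probes), while the WT crosses lie near the R50 circles for some genes (IFI27, NR5A2, COCH) and near the CDK2-/- circles for others (ABCG2).

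SPARC, a secreted glycoprotein of the matrix, showed the largest rise of all tested genes. It was at 5.28 and 5.10 in R50 and at −4.38 and −3.83 in CDK2-/-, a difference of 9.30 (SE 0.20, limma adjusted p = 1.56e-05). WT cells, at 3.55 and 3.87, were near R50. ABCG2, an ATP-driven pump that exports many drugs, was at 3.71 and 3.58 in R50 and at −4.21 and −3.57 in CDK2-/- (7.53, adjusted p = 2.57e-05). Here WT, at −3.83 and −3.57, and WT+NU6102, at −4.20 and −4.29, were near CDK2-/-, so the high level was measured in R50 cells alone among the 4 groups. Of the 26 measured ABC transporters, ABCG2 was the single one called higher, beside 2.92% of all genes. ABCB1, which encodes P-glycoprotein, was above background on both R50 arrays and neither CDK2-/- array, and its difference of 0.78 did not pass the test. ABCE1, a ribosome recycling factor of the same family that is no pump, fell by 1.18.

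Other large rises were in genes of varied roles. LCN2, a secreted iron-siderophore binder of innate defence, rose by 5.03, TNFRSF6B, a decoy receptor for FAS ligand, by 3.81, LEMD1 by 4.32 and GLIPR1 by 3.97. NR5A2, a nuclear receptor of gut and liver, rose by 3.75 on its brightest probe and by 0.36 on its second probe, so its size depends on the probe. Among genes above background in R50 and not in CDK2-/-, NCAM1, a neural cell adhesion molecule, was at 2.16 and 2.02 in R50, at least 147.5-fold higher; its probes ranged from 3.51 to 8.72. Bounds for the others were at least 45.7-fold for PPP1R1B, 44.4-fold for LRP1B, a lipoprotein receptor family member, 27.4-fold for VTCN1, an immune checkpoint ligand, 22.2-fold for the glucose transporter SLC5A1 and 20.7-fold for LXN.

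The largest falls were in genes of varied roles. GRHL3, a transcription factor of epithelial barriers, was at −2.15 and −2.33 in R50 and at 1.77 and 1.91 in CDK2-/- (fall of 4.08, SE 0.26, limma adjusted p = 0.000275), with no overlap of the groups. It belongs to the 34 measured genes of tight junctions and epithelial identity, of which 11 rose and 13 fell, 2 of them past 2-fold. Of all genes 16.2% rose and 22.2% fell. PKIB, an inhibitor of protein kinase A, fell by 5.19 and PDE4B, which degrades cyclic AMP, was at 2.00 and 2.03 in CDK2-/- and not above background in R50, at least 112-fold lower. ACSL5, an acyl-CoA synthetase, was at 3.79 and 3.66 against 6.85 and 6.89 (fall of 3.15). HAS3, a hyaluronan synthase, fell by 3.44 on its brightest probe and by 0.20 on its second. UTS2 fell by 3.49, ZNF283 by 3.36, PACSIN1 by 3.15, COCH by 3.14 and NOSTRIN by 3.10. Below background in R50 were also ZC4H2 (at least 89.3-fold lower), the intestinal dipeptidase DPEP1 (41.0-fold), KLHDC9 (28.3-fold) and WNT16 (16.4-fold).

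Of 21 WNT pathway genes 3 were called lower, and of 32 EGFR and ERK genes 2, beside 2.46% of all genes. None was called higher. RNF43, a ubiquitin ligase that removes WNT receptors and is itself a WNT target, was at −2.68 and −2.59 in R50 and at 2.46 and 2.5 in CDK2-/- (fall of 5.11, limma adjusted p = 3.06e-06). BAMBI and AXIN2, further feedback genes, fell by 2.21 and 1.05. Of 21 measured WNT targets and pathway genes 4 rose and 8 fell, beside 16.2% and 22.2% of all genes. RNF43, BAMBI and AXIN2 were the 3 past 2-fold. The EGF receptor ligands AREG and EREG fell by 3.17 and 1.59, AREG from 5.51 and 5.49 in CDK2-/- to 2.38 and 2.28 in R50. None of the other 30 measured EGFR and ERK genes was called.

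Matrix and mesenchymal genes were mixed, with 22 of 45 rising and 11 falling, beside 16.2% and 22.2% of all genes. Beside SPARC, the metalloprotease MMP14 rose by 1.82, S100A4 by 1.80 and the intermediate filament VIM by 1.58. MMP14 was above background on 1 CDK2-/- array only, so its size is limited by background signal. VIM was dim, at −4.82 and −4.77 in CDK2-/- and −3.16 and −3.27 in R50, below WT at −2.59 and −2.68. Of other mesenchymal members, ZEB1 and TWIST1 rose by 0.87 and 0.69, and FN1 (−0.61) and CDH2 (0.05) did not pass the test. SNAI2 fell by 0.97 and was not above background in R50. The protease inhibitor TIMP3, by contrast, was not above background in R50, at least 5.20-fold lower. Basement membrane collagen COL4A6 fell by 1.52 on its brightest probe, and its second probe stood at −0.18. Of 15 measured keratins 5 were called higher and none lower, beside 2.92% and 2.46% of all genes. The called keratins include KRT13 (1.88), KRT86 (1.6) and KRT80 (1.41). KRT14, above background in R50 only, was at least 2.85-fold higher, a call lost without R50 replicate 2. Axon guidance and neural adhesion genes had 5 called higher and 2 lower of 21, beside the same 2.92% and 2.46% of all genes. NRP2 was 2.62, SEMA3A 2.05 and L1CAM 1.84 above CDK2-/-. L1CAM was above background on 1 CDK2-/- array only, so its size is limited by background signal.

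Of 39 measured drug metabolism genes 6 were called higher and none lower, beside 2.92% and 2.46% of all genes, with a median of 0.01. The called genes include AHR, a receptor for xenobiotics (1.2), its repressor AHRR (2.01) and its target CYP1A1 (1.37). The others are the retinaldehyde dehydrogenase ALDH1A3 (2.67), and CYP4F12 and CYP4F11 (1.43 and 1.37). Without the minimum fold 8 members rose and 8 fell, beside 16.2% and 22.2% of all genes. TIPARP and ALDH3A1 fell by 0.48 and 0.53, and CYP1B1 (0.28), CYP1A2 (−0.19) and NQO1 (0.16) did not pass the test. AHRR was above background on 1 CDK2-/- array only, so its size is limited by background signal. CYP1A1 also rose with 24 h of inhibitor in WT cells, by 1.79. Of 26 HOX genes 5 were called higher, beside 2.92% of all genes, and all 5 belong to the HOXB cluster on chromosome 17. The largest rise was that of HOXB8, at 0.05 and −0.14 in R50 and −2.43 and −2.64 in CDK2-/- (2.49). WT levels of HOXB8, 0.10 and −0.01, were near R50. Of 25 measured intestinal identity genes 4 were called higher and 3 lower, beside 2.92% and 2.46% of all genes. PSCA (3.01) and CEACAM1 (2.5) were at the front of those higher, and FOXA2 was at least 1.77-fold lower.

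The remaining lists had at most 2 members called in each direction, beside 2.92% of all genes called higher and 2.46% lower. Of 28 measured genes for amino acid supply and stress of the endoplasmic reticulum 2 were called higher and none lower. DDIT4, an inhibitor of mTOR complex 1, rose by 2.39 and the cystine transporter SLC7A11 by 1.44. Of 34 glycolysis and hypoxia genes 2 were called higher and 2 lower. ENO2 and ALDOC rose by 1.42 and 1.16, and SLC2A1 fell by 1.48 on its brightest probe while its second probe stood at 0.14. CA12 was at least 1.76-fold lower, a call lost without CDK2-/- replicate 1 (limma adjusted p = 0.0873) or replicate 2 (0.0984). Sterol and lipid genes had 14 of 30 falling and 3 rising, beside 22.2% and 16.2% of all genes, with HMGCS1, of the mevalonate pathway, furthest down at −1.09. Among 26 p53 targets 5 rose and 10 fell, beside 16.2% and 22.2% of all genes, and SPATA18 was at least 2.70-fold lower. None of 52 ribosomal protein genes was past 2-fold, and their median was −0.10, or 0.00 after quantile normalization.

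**Figure D4:**
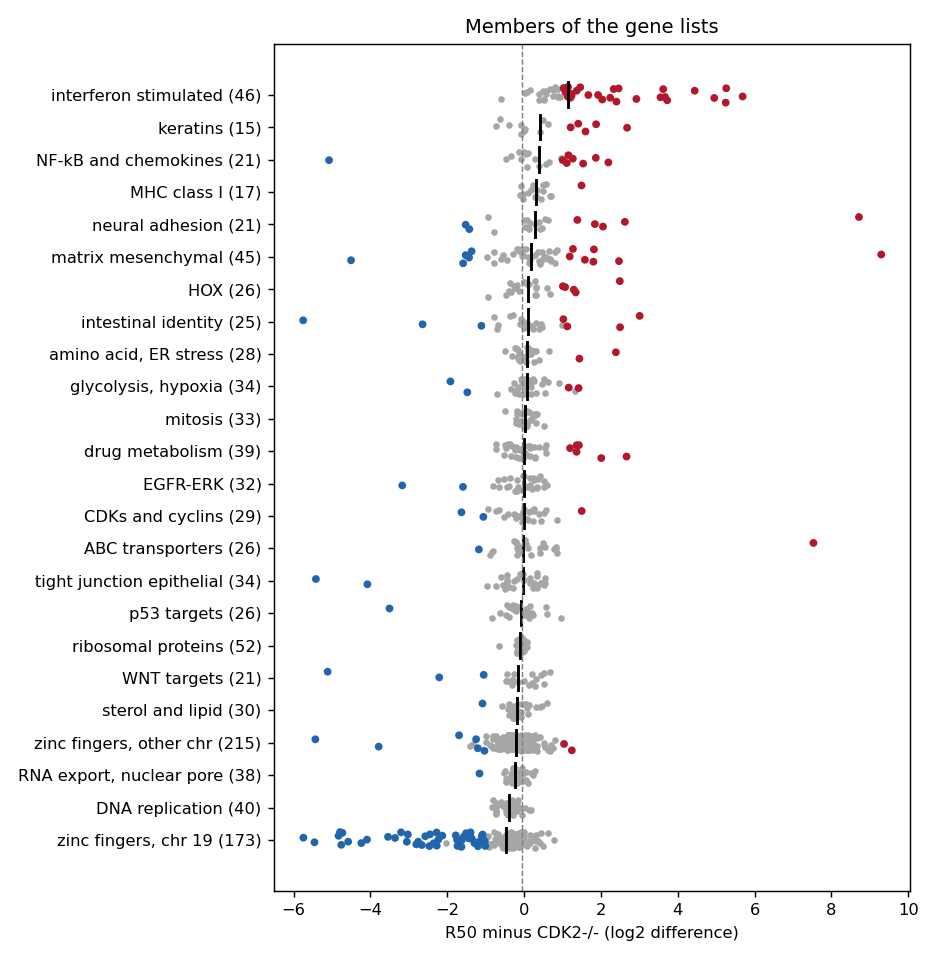
Log2 difference R50 minus CDK2-/- of every measured member of 24 gene lists, with the number measured in brackets; red and blue points are members called higher and lower, grey points the rest, black bars the list medians and the dashed line the median of all tested genes (−0.06). The interferon list has the highest median (1.14) and the chromosome 19 zinc fingers the lowest (−0.48), and the ABCG2, SPARC and NCAM1 points stand far from the other members of their lists.

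Zinc finger genes of chromosome 19 had the lowest median of the plotted lists. These KRAB-type and related DNA-binding proteins lie in tandem clusters, many of them act as repressors of transposable elements, and their probes may share sequence with close relatives. Of 173 measured genes named ZNF on this chromosome 52 were called lower in R50 and none higher, beside 2.46% and 2.92% of all genes. Without the minimum fold 102 fell and 8 rose, beside 22.2% and 16.2%, with a median of −0.48. Some of the 52, such as ZNF486 and ZNF566, were above background in CDK2-/- only and entered the test through that line. Others, such as ZNF100 (fall of 2.45), were above background on all 4 arrays. The filter was uneven: 868 tested probes were above background in CDK2-/- only and 208 in R50 only. The part of this in the counts of zinc finger genes was not tested. ZNF genes on other chromosomes had 6 called lower and 2 higher of 215, beside the same 2.46% and 2.92% of all genes, with a median of −0.20. ZNF134 was at −1.13 and −1.35 in CDK2-/- and not above background in R50, at least 11.7-fold lower; its levels in WT, −7.15 and −7.16, were near those of R50. The bounds were 13.9-fold for ZNF613, 10.1-fold for ZNF350 and 7.15-fold for ZNF83. By probes, chromosome 19 had 102 of 1667 called lower (6.12%), the highest share of any chromosome; its ZNF probes had 74 of 234 (31.6%) and its other probes 28 of 1433 (1.95%). The shares called higher ran from 1.18% on chromosome 15 to 4.49% on chromosome 4.

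For the called probes as a whole, the WT level was more often nearer R50 than CDK2-/-. It was nearer R50 for 474 of the 781 probes higher in R50 (60.7%) and for 516 of the 673 lower (76.7%). WT lay between the 2 lines for 68.4% and 68.1% of them. Since WT was on the other slide, this is a description of levels only.

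R50 cells were maintained in inhibitor, so their difference from CDK2-/- was set beside the effect of 24 h of NU6102 in WT cells, a difference within slide 2 that shares no array with it. Over 27781 probes the 2 differences correlated with r = −0.13, and over the 1454 called probes with r = −0.25; probes are not independent replicates. Of the 1454 called probes and the 1712 called between WT+NU6102 and WT (6.16% of those tested, 1.12% higher and 5.04% lower), 400 were in both sets, 27.5% of the first and 23.4% of the second. Of these 400, 285 went in opposite directions, 255 of them higher in R50 and lower with the inhibitor. In a direct test of R50 minus CDK2-/- against WT+NU6102 minus WT, in the same limma fit, 3470 probes differed at 2-fold (12.5%), with 2133 higher (7.68%) and 1337 lower (4.81%), and 1071 of the 1454 called probes were among them. By genes, 6.4% were called with the inhibitor in WT (1.05% higher, 5.35% lower) and 12.9% in the direct test (8.02% higher, 4.9% lower).

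In this test most interferon genes stood above, most replication genes below, and the cyclins, CDKs and regulators were split, with 7 above and 13 below of 29. Of the 46 interferon genes 45 passed it upward without the minimum fold, beside 3810 of the 19095 tested genes. MX2 was the exception (0.06, limma adjusted p = 0.553). The test subtracts the inhibitor effect in WT cells, which lowered 45 of the 46, so this count does not describe R50 against CDK2-/- alone. RSAD2 (3.53) and UBE2L6 (1.33), which did not rise in R50, passed it upward, as did ISG20 (0.78), which fell. The replication genes had 31 of 40 below and 2 above, beside 27.4% of all genes below. In WT cells the inhibitor raised 24 of these 40 and lowered 7, which enters their values in the same way. CCNE1 and CCNE2 rose with the inhibitor in WT cells, by 1.17 and 1.37, and were lower in R50, so that the 2 differences were 2.23 and 3.0 apart (adjusted p = 5.42e-05 and 2.39e-05). CDK6 behaved otherwise: it rose by 1.38 with the inhibitor and was 1.5 higher in R50, and the 2 differences were 0.12 apart (SE 0.07, limma adjusted p = 0.207). The largest positive values were those of NCAM1 (11.98), SPARC (10.50), SAMD9L (9.51), IFI44L (8.49) and IFI44 (8.45), and the largest negative ones those of PDE4B (−7.54), ZNF613 (−6.16), ZC4H2 (−6.14), ZNF134 (−5.86) and TTN (−5.76). Except for SPARC, these genes were not above background in at least 1 of the 2 lines, so their values depend on background signal and are not bounds.

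**Figure D5:**
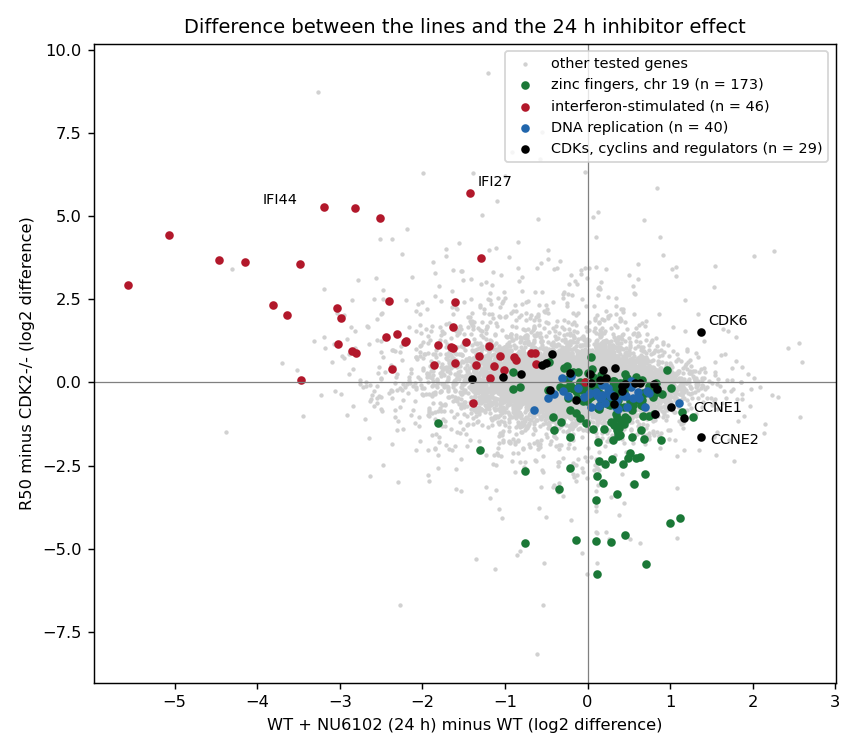
Log2 difference WT+NU6102 minus WT (x axis) and R50 minus CDK2-/- (y axis) of each tested gene; coloured points are interferon-stimulated genes (46), DNA replication genes (40), cyclins, CDKs and regulators (29) and chromosome 19 zinc fingers (173). Interferon genes lie at the upper left, lower with the inhibitor and higher in R50, CCNE1 and CCNE2 at the lower right, and CDK6 at the upper right.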

How the data were processed

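RNA of R50 and CDK2-/- HCT-116 cells, and of WT and WT+NU6102 cells, was measured on 8 one-colour Agilent arrays. The deposited scanner files hold for each spot an intensity that the authors made with Agilent Feature Extraction 11.5.1.1, background subtracted and not normalized between arrays. The authors also deposited log2 values of 28720 probes made in GeneSpring GX, each probe centred on its median; set against the scanner files, 99.79% of differences between the first R50 and CDK2-/- arrays were equal within 0.01 apart from a constant, and they were used as an alternative.

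Values were computed in R 4.3.3 (package data.table, version 1.17.8). After removal of control spots and flagged outlier spots, signals were taken to log2 less the 75th percentile of the array, and spots of a probe averaged. Per array 32376 to 36206 spots were well above background and 0 saturated; the number of arrays limits the precision. Probes above background on both arrays of R50 or CDK2-/- were tested; 16 of them lacked a usable spot on an array. Limma 3.58.1 fitted 4 groups over 8 arrays, and tests are two-sided with Benjamini-Hochberg adjustment over 27781 probes. The procedure was tested on simulated data. Current symbols came from RefSeq (GRCh38.p14), which held 19977 of the 20558 transcript accessions of tested probes; probe positions are hg19, from the WT files. A bound ("at least N-fold") sets the mean of the brighter line against, per array, the higher of the lowest signal above background and the probe's own.

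Genes were named by rule: the cyclins, CDKs and regulators; the 12 largest rises and falls above background on all 4 arrays; the 6 largest bounds in each direction; up to 4 called members per list; and the 5 largest values each way against the inhibitor effect. Some genes that the rule selects are not reported here. Other list members are examples chosen after their values were seen. The members, lists and comparisons were chosen with earlier results of these data known. Alternatives were normexp correction (offset 50), quantile normalization, other filters and fold minimums, the authors' values, a fit of 4 arrays, a trended prior, a replicate block, the methods' ANOVA and leaving out each array.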

Additional observations from a re-analysis of the deposited data

How the results depend on the processing

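The 1454 called probes became 647 after normexp background correction, 937 with all 4 arrays above background, 438 by the methods' ANOVA, 10130 without a minimum fold and 414 at an absolute log2 difference of 2. The probes past the test of R50 minus CDK2-/- against the 24 h inhibitor effect went from 3470 to 1941 after normexp. Leaving out 1 array gave 1403 to 1586 called probes and 3387 to 3668 in that test. The other settings stayed within 1.5 times. The median of the replication genes (−0.39) was −0.36 after normexp, −0.35 after quantile normalization, −0.37 over all probes of a gene and −0.36 to −0.40 with 1 array left out. That of the interferon genes (1.14) was 0.97 after normexp, 1.18 after quantile normalization and 1.13 to 1.16 with 1 array left out. That of the chromosome 19 zinc fingers (−0.48) was −0.30 after normexp, −0.54 over all probes and −0.46 to −0.51 with 1 array left out. The WNT median (−0.15) was 0.068 without R50 replicate 1 (−0.209 to 0.068 with 1 array left out), and the ribosomal protein median (−0.10) was 0.00 after quantile normalization. The cause was not tested.

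Of 115 named genes 104 passed the test, and none of these changed direction under the alternatives run; of 1806 values 1754 kept direction and call, 35 lost the call and 2 gained it. Genes that did not pass and turned sign were CCND1 (0.005 after normexp, 0.034 after quantile normalization, 0.017 in the authors' values, −0.079 to 0.068 with 1 array left out), CDKN1A (0.028 after quantile normalization, 0.009 in the authors' values, −0.053 to 0.025 with 1 array left out), E2F3 (0.005 after normexp, 0.002 after quantile normalization, −0.112 to 0.039 with 1 array left out) and RBL1 (0.014 after normexp, −0.11 to 0.06 with 1 array left out). With the replicate number as a block 1448 probes were called, 3448 passed the test against the inhibitor effect, and no named gene changed its call; the deviations of same-numbered R50 and CDK2-/- arrays correlated at 0.04, and the labels do not say that a number pairs the cultures. Of the 1454 called probes 933 were above background on all 4 arrays; for the others the size of a change is limited by background signal.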

Other observations

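Further gene families were looked at after their values were seen, so their counts are descriptions without support of their own, and probes of such close relatives may share signal. All 6 measured APOBEC3 genes, cytidine deaminases that restrict retroviruses and lie side by side on chromosome 22, were called higher in R50 than in CDK2-/- cells, beside 2.92% of all tested genes. APOBEC3G was at 0.57 and 0.59 in R50 and at −2.95 and −2.68 in CDK2-/- (difference 3.39, SE 0.39, limma adjusted p = 0.00186), and APOBEC3F was 1.73 higher. Their median difference was 1.58, and all 6 fell with 24 h of inhibitor in WT cells (median −1.18), beside 22.3% of all tested genes. Of 13 HLA class II genes, which present peptides to helper T cells, 2 were called higher, beside 2.92% of all tested genes. HLA-DPB1 (2.23) and HLA-DPA1 (1.70) were called on their brightest probes, while other probes stood as low as −0.10 and 0.45.

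Of 6 measured genes of the beta-globin region on chromosome 11, 5 were called higher in R50, beside 2.92% of all tested genes, and HBD was not (−0.47, limma adjusted p = 0.698). The embryonic globin HBE1 was at 2.97 and 2.98 in R50 and at 0.65 and 0.70 in CDK2-/- (2.30, limma adjusted p = 2.45e-05), HBG1 was 1.43 higher, and the neighbouring olfactory receptor genes OR51B4 and OR51B5 were 1.84 and 1.30 higher. OR51B2, not above background in CDK2-/-, was at least 4.18-fold higher. WT levels of HBE1 and HBG1, 2.89 and 1.58, were near those of R50. Of the metallothionein genes, which bind zinc and copper, 7 of 8 fell in R50, by 0.44 to 0.64, beside 22.2% of all tested genes. The natural killer receptor genes KLRC1, KLRC3 and KLRC4 were 1.38, 1.55 and 1.69 higher.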
